A study of Homo sapiens with 5 samples.

Results

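SREBF2, the transcription factor that governs cellular sterol supply, and 7 genes known to respond to it (HMGCS1, SQLE, IDI1, FDFT1, INSIG1, DHCR7 and SC5D) were followed in 3 related human renal cell carcinoma lines. The genes were chosen by name for their place in sterol metabolism, with earlier results of these data known. Every probe set that the platform table assigns to 1 of these symbols alone was taken. This gave 20 probe sets for 7 of the 8 genes, among 41097 probe sets with a single gene symbol. FDFT1 was not analysed here. Each of the 7 genes was tested through its brightest probe set, among 15024 genes tested in all.

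Biotinylated cRNA made from total RNA was hybridised to 5 Affymetrix arrays. Of these, 2 held the parental line SN12C, labelled non-metastatic. LM1, labelled generation 1 of lung metastatic cells, was on 1 array and LM2, labelled generation 2, on 2 arrays. The labels name no treatment, and no gene manipulation, for any of the lines. The series asks which genes differ as metastatic activity increases. The SN12C and LM2 arrays are labelled as biological replicates. Whether they came from separate cultures is not stated, so the p-values reflect no more than array to array spread, which may be technical. LM1 rests on a single array whose spread is assumed to equal that of the other lines.

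Cells keep their sterol content steady through SREBP factors, which are made as membrane proteins of the endoplasmic reticulum. When sterols are scarce, SCAP carries the SREBP to the Golgi, where the proteases encoded by MBTPS1 and MBTPS2 release its active part to the nucleus. When sterols are plentiful, INSIG proteins hold SCAP back, and since INSIG1 is itself a target of the factor, the circuit feeds back on itself. The targets encode the enzymes that build cholesterol from acetyl-CoA by way of mevalonate, farnesyl diphosphate and squalene, and proteins that take up cholesterol from lipoproteins.

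The letters that SREBP proteins are known to bind, and the CCAAT box known to act beside them, were searched for in the promoters of these genes. Promoter windows running from 250 bases before to 50 after a gene's start were taken from RefSeq (build GRCh38.p14). The table held 11 windows for 6 members (SREBF2, HMGCS1, IDI1, INSIG1, DHCR7 and SC5D). A stretch of 60 bases is shown for each, 5′ to 3′ on the gene's own strand, with capitals marking CCAAT on either strand (ATTGG is its reverse complement) and, in SREBF2, the sterol regulatory letters.

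SREBF2, chr22:41832963-41833022, plus strand: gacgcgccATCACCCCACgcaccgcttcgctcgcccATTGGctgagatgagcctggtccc

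HMGCS1, chr5:43313516-43313575, minus strand: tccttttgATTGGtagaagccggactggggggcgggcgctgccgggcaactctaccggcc

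IDI1, chr10:1048967-1049026, minus strand: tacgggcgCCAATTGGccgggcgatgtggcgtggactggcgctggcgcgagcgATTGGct

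INSIG1, chr7:155297700-155297759, plus strand: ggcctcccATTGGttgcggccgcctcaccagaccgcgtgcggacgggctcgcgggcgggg

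DHCR7, chr11:71448436-71448495, minus strand: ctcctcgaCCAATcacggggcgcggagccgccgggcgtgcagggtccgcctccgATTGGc

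SC5D, chr11:121292707-121292766, plus strand: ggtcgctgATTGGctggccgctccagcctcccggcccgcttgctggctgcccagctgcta

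CCAAT lay in 8 of the 11 member windows and in at least 1 window of all 6 genes. Over the whole promoter table it lay in 34.6% of 35116 windows, and in at least 1 window of 39.7% of genes. In IDI1 the run CCAATTGG holds the motif on both strands at overlapping positions. The letters TCACNCCAC, searched on both strands, were found in SREBF2 alone among the 6 genes, 133 bases before its start, against 1.13% of all windows. The overlapping letters ATCACNCCA were found at the same place, against 0.57% of windows. GGGCGG, the core of the Sp1 box, lay in 10 of 11 member windows against 45% of all, and the E-box CANNTG in 5 of 11 against 68.7%. By gene these were 6 of 6 against 48.3%, and 4 of 6 against 73.1%. Windows of the same gene can overlap, as both of SC5D do. A match describes the letters only, and a window without one says nothing about binding by the factor elsewhere.

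The arrays differed in ways that touch these genes. On LM1 the 3′ signal of beta-actin was 3.43 log2 units above its 5′ signal, where the SN12C and LM2 arrays gave 0.07 to 0.47. For GAPDH the same difference was 2.09 on LM1 and -0.07 to 0.14 elsewhere. The 5′ probe set of 18S ribosomal RNA was highest on SN12C replicate 1 (8.80) and LM1 (8.61), while the other 3 arrays ranged from 7.66 to 7.83. Across genes tested, the SN12C arrays correlated at 0.971 and the LM2 arrays at 0.997, and the deposited values of 714 and 2129 genes were equal within these pairs. Genes are not independent replicates. Of the 17 renal markers listed, 15 were measured and 12 reached the filter value of 6.03. PAX8 (9.19 to 9.82) and KRT18 (14.04 to 14.72) were among them, while PAX2 (6.34 to 6.46) and LHX1 (6.06 to 6.08) lay close above it. KRT19 read 8.92 and 9.54 in SN12C, 12.01 in LM1, and 11.76 and 11.74 in LM2. CD24 read 7.68 and 11.10 in SN12C, 7.71 in LM1, and 6.67 and 7.31 in LM2. LRP2 and CUBN lay below the filter value on every array and CDH16 on all but SN12C replicate 1. A marker counts as reaching the filter value where at least 2 arrays do. Leukocyte markers (2 of 4 measured at the filter value) had list means per array of 5.87 to 5.98. Endothelial markers (4 of 5) had means of 6.17 to 6.64 and hepatocyte markers (3 of 4) of 6.21 to 6.75. PTPRC, LYZ, CDH5 and ALB lay below the filter value on every array. CD14 (6.19 to 7.16), PECAM1 (7.07 to 7.65) and TTR (7.39 to 7.87) lay above it. KDR read 7.10 and 6.79 in SN12C, 5.77 in LM1, and 5.53 and 5.51 in LM2. Lung epithelial markers (4 of 5) had means of 6.85 to 7.14 and erythroid markers (2 of 2) of 6.93 to 7.17. SFTPB read 9.04 on SN12C replicate 1 and 7.71 to 7.82 elsewhere, and SFTPC ranged from 8.05 to 8.29. Fibroblast markers (6 of 7) had means of 7.36 and 7.88 in SN12C, 8.02 in LM1, and 8.31 and 8.26 in LM2. Of these, COL3A1 (6.98 and 8.98 in SN12C, 10.04 in LM1, 10.94 and 11.11 in LM2) and THY1 (9.73 and 10.83, 10.34, then 11.73 and 11.44) were higher in LM2, while COL1A1 stayed between 9.01 and 9.04, and DCN was no higher (7.34 and 6.89 in SN12C, at most 7.12 in LM2). Their part in the results was not tested.

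The first comparison set LM2, generation 2, against the parent. HMGCS1, the synthase that commits acetyl-CoA to the mevalonate route, was the member with the largest difference and was lower in LM2, while IDI1, SQLE, DHCR7 and INSIG1 were higher and SREBF2 and SC5D slightly lower. No member, and no gene of the 15024 tested, had an adjusted p below 0.05 (limma, 0%, lowest adjusted p = 0.225). At an unadjusted p below 0.05 stood 1737 genes, 6.96% of all genes higher and 4.6% lower, and 1 of the 7 members lower and 0 higher. Of these 1737 genes 1046 (60.2%) were higher. When the arrays were quantile normalized again, 1020 genes were higher and 1075 lower at that level, or 48.7% higher. Without SN12C replicate 2, where the spread comes from the LM2 pair alone, limma called 3824 genes, with SC5D (0.12) as the 1 member among them. Without SN12C replicate 1, where the spread comes from the same pair, it called 0 genes (lowest limma adjusted p = 0.105). The arrays of LM2 and SN12C did not overlap for 3 members that were higher, against 25.3% of all genes, and 1 that was lower, against 14.1%. The median difference of the 7 members was 0.29 log2 units, against 0.03 over all genes.

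The brightest HMGCS1 probe set gave 10.28 and 10.54 on the SN12C arrays, 10.17 on LM1, and 9.49 and 9.35 on the LM2 arrays. Both LM2 arrays lay below all others. The LM2 mean was 9.42 ± 0.09 (SD, n = 2) against 10.41 ± 0.19 (SD, n = 2), a difference of -0.99 ± 0.13 (SE; limma unadjusted p = 0.00373, adjusted p = 0.252). It held against each parental array taken alone, at -0.86 against replicate 1 and -1.12 against replicate 2. With 2 arrays a line, the smallest two-sided p an exact permutation test allows is 0.333.

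A second probe set of HMGCS1 did not repeat this. It read 9.01 and 10.89 on the SN12C arrays, 7.47 on LM1, and 9.99 and 9.75 on LM2, so that the LM2 arrays lay between the parental ones. Its difference of LM2 from SN12C was -0.08 ± 0.75 (SE). Between the parental arrays it differed by -1.88 (replicate 1 minus replicate 2), where the first probe set differed by -0.26. Its lowest values were on LM1 and SN12C replicate 1, the arrays with the highest 18S signal, whose part in the disagreement was not tested. In a fit over 33376 probe sets, 0% passed an adjusted p of 0.05 (limma, lowest adjusted p = 0.328). At an unadjusted p below 0.05, 5.67% were higher and 3.85% lower, and among the 18 member probe sets in the fit 1 was higher (an INSIG1 probe set) and 1 lower (the brighter one of HMGCS1).

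**Figure D1:**
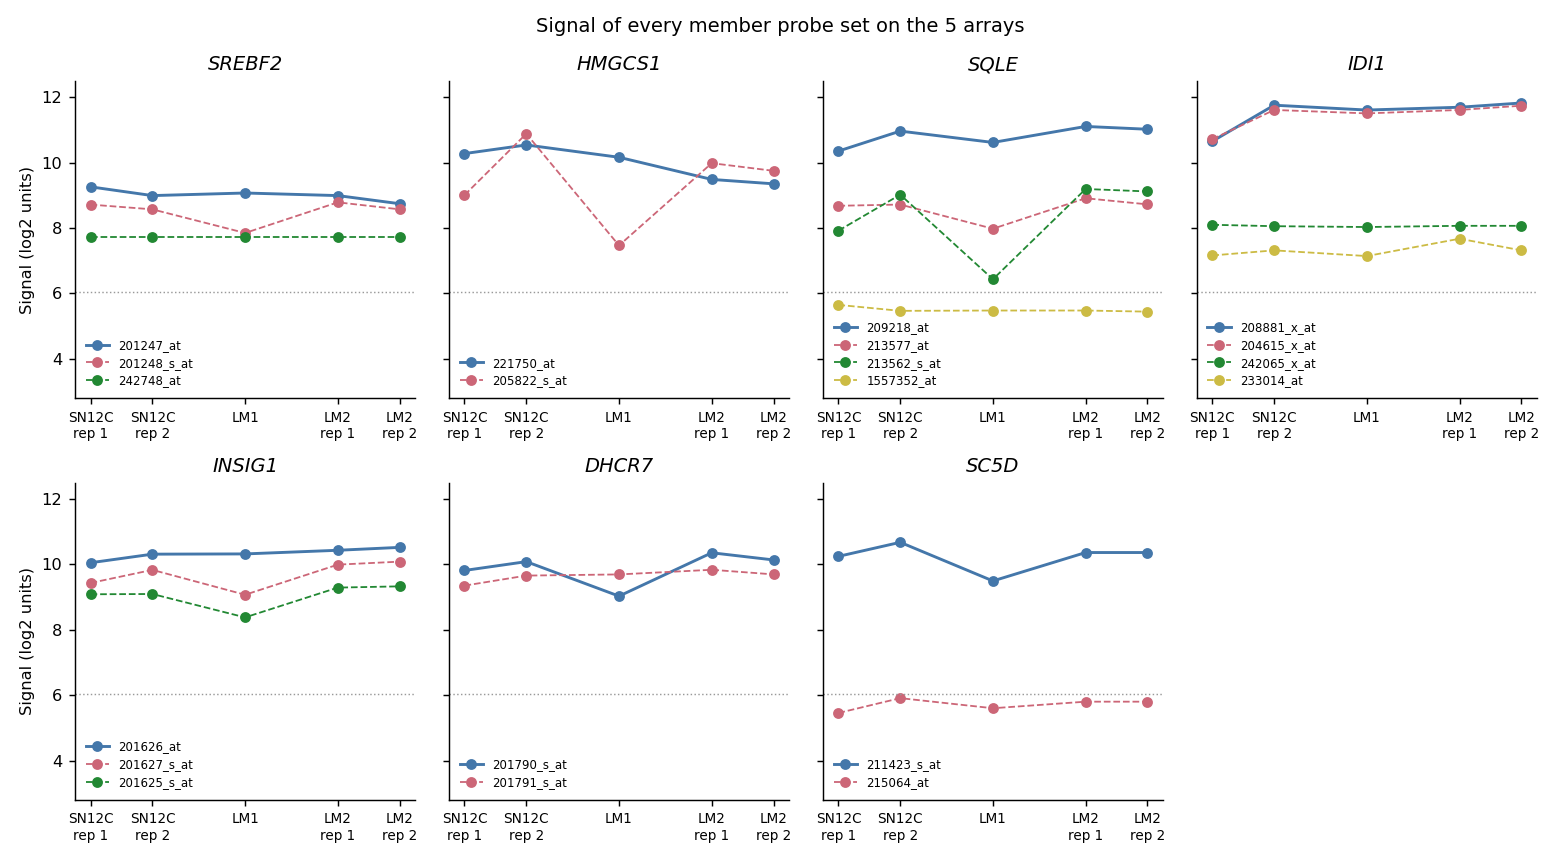
Log2 signal of all 20 member probe sets on the 5 arrays, 1 panel per gene; the solid line is the probe set that stands for the gene, dashed lines are its other probe sets, and the dotted line is the filter value of 6.03. From SN12C replicate 2 to LM1 the solid line of HMGCS1 goes from 10.54 to 10.17 and its dashed line from 10.89 to 7.47.

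IDI1 encodes the isomerase that makes the building blocks of farnesyl diphosphate interchangeable. Its brightest probe set read 10.66 and 11.76 in SN12C, 11.61 in LM1, and 11.70 and 11.83 in LM2. SN12C replicate 1 alone was low, and the other 4 arrays lay between 11.61 and 11.83. The difference of 0.55 ± 0.44 (SE) became 1.11 against replicate 1 and 0.00 against replicate 2. A second probe set behaved alike (10.72 and 11.62, 11.51, then 11.62 and 11.74), while the dimmer pair differed by -0.01 and 0.26. Of the 4 IDI1 probe sets, 3 end in _x_at, a type that can bind related transcripts, so its values are uncertain as to gene.

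SQLE encodes squalene epoxidase, the first oxygen-using step of sterol synthesis. It read 10.36 and 10.97 in SN12C, 10.62 in LM1, and 11.11 and 11.02 in LM2. Both LM2 arrays were above both parental ones, with SN12C replicate 2 close below them. The difference was 0.41 ± 0.25 (SE; limma adjusted p = 0.631), and 0.71 against replicate 1 but 0.10 against replicate 2. The other SQLE probe sets that passed the filter differed by 0.12 and 0.69 in the same direction. The last one stayed below the filter value on every array, at 5.44 to 5.65.

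DHCR7 encodes the reductase of the final step to cholesterol and SC5D the desaturase just before it. DHCR7 read 9.82 and 10.09 in SN12C, 9.03 in LM1, and 10.36 and 10.14 in LM2. The LM2 arrays were above both parental arrays by a difference of 0.30 ± 0.15 (SE; limma adjusted p = 0.589), and its second probe set gave 0.26. SC5D read 10.25 and 10.68 in SN12C, 9.49 in LM1 and 10.36 on both LM2 arrays, whose deposited values are equal. The LM2 arrays lay between the parental ones, at -0.10 ± 0.18 (SE). A second SC5D probe set stayed below the filter value on every array, at 5.45 to 5.91, and was not tested.

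Of the regulators, INSIG1 read 10.05 and 10.31 in SN12C, 10.32 in LM1, and 10.43 and 10.52 in LM2. Its 3 probe sets agreed for LM2, which lay above both parental arrays in each, by 0.29, 0.41 and 0.22. None passed after adjustment (limma adjusted p from 0.511 to 0.626 over probe sets). SREBF2 itself read 9.26 and 8.99 in SN12C, 9.07 in LM1, and 8.99 and 8.75 in LM2. The lines overlapped, and the difference was -0.26 ± 0.16 (SE) there and 0.03 ± 0.12 in a second probe set. The remaining SREBF2 probe set holds 7.73 on all 5 arrays and carries no information on the lines.

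The parental replicates set the scale for these differences. SN12C replicate 1 was lower than replicate 2 for 6 of the 7 members, SREBF2 being the exception, against 57.5% of all genes. The median gap between the parental arrays was 0.27 log2 units in size for the members and 0.28 over all genes, and between the LM2 arrays 0.13 and 0.07. The LM2 difference was larger than the parental gap for 3 of 7 members (HMGCS1, INSIG1 and DHCR7), against 33.7% of genes. The median of the members was 0.43 against SN12C replicate 1 and 0.00 against replicate 2, where the medians of all genes were 0.06 and 0.00. SN12C replicate 1 is also the array with the highest 18S signal, and the part of this in the differences was not tested.

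Of 13 sterol synthesis genes tested outside the members, 9 were higher and 4 lower in LM2, where 55.7% of all genes were higher. Their differences ran from -0.41 to 1.41, with a median of 0.11. The median was 0.24 against SN12C replicate 1 and 0.02 against replicate 2. At an unadjusted p below 0.05, 1 was higher and 0 were lower, beside 6.96% and 4.6% of all genes. That gene was LSS, the cyclase that folds squalene epoxide into lanosterol. It read 9.45 and 9.28 in SN12C, 10.05 in LM1, and 10.10 and 9.89 in LM2. All 3 arrays of the metastatic lines were above both parental ones, by 0.63 ± 0.13 (SE; limma unadjusted p = 0.0119, adjusted p = 0.294) for LM2. Unlike most members, LSS differed in this probe set by a like amount from each parental array, 0.55 and 0.72. Its other probe sets gave 0.87 and -0.06. The first of these was split between the parental arrays, at 6.96 and 7.86 in SN12C, and read 8.34 and 8.22 in LM2. EBP, a sterol isomerase, had the largest difference, 1.41 ± 0.89 (SE), but read 8.88 and 11.16 in the SN12C arrays, and its other probe sets gave 0.23, -0.11 and -0.04. ACAT2, which joins acetyl-CoA units, stood at 0.59 ± 0.31 (SE), at 0.97 against SN12C replicate 1 and 0.22 against replicate 2. NSDHL, a later enzyme that removes methyl groups from sterols with its partners, stood at 0.43 ± 0.16 (SE), and at 0.77 in its other probe set. That probe set read 8.425 and 9.358 on SN12C replicates 1 and 2.

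**Figure D2:**
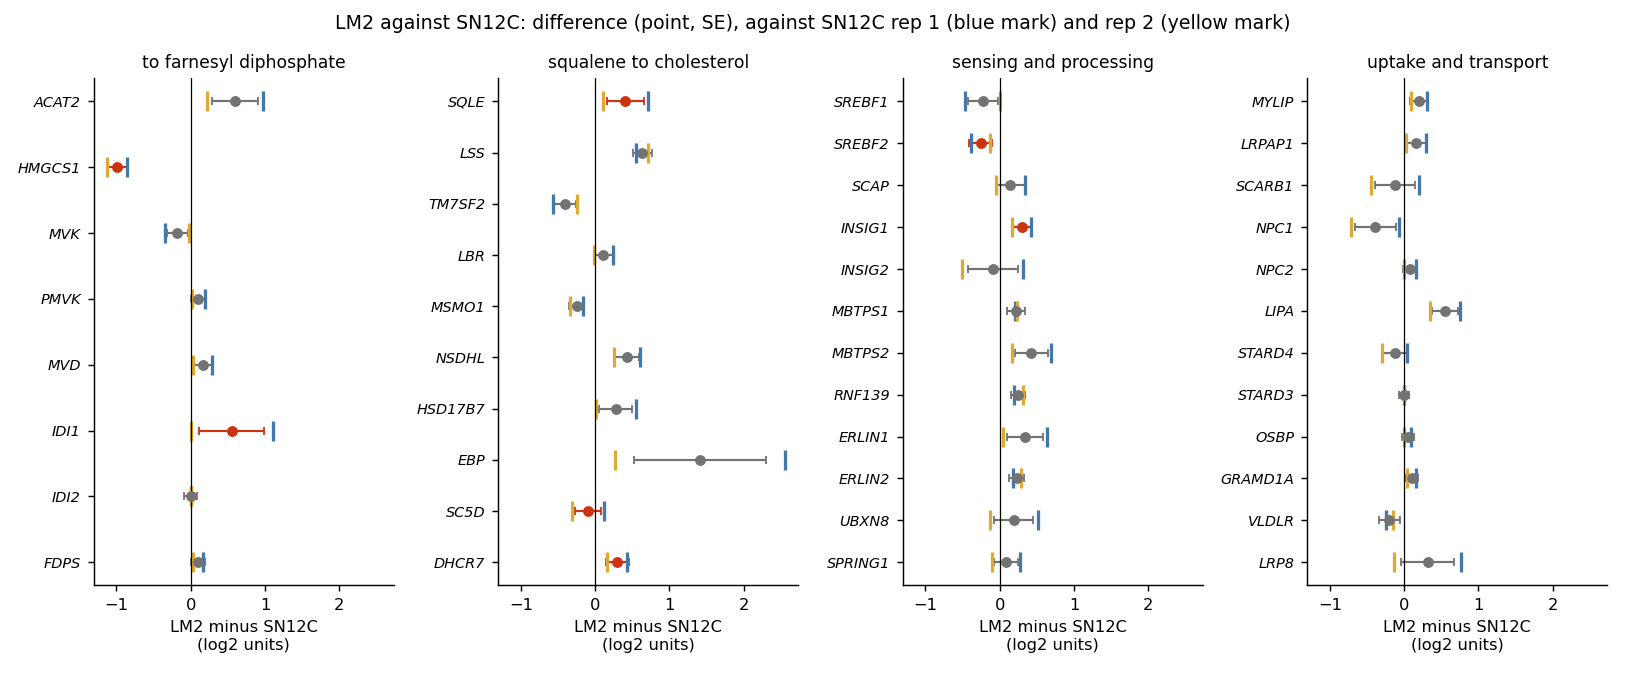
Difference of LM2 from SN12C in log2 units for the tested genes of 4 lists (point and SE of the limma fit; members in red, other genes in grey), with the difference from SN12C replicate 1 (blue mark) and from replicate 2 (yellow mark). HMGCS1 lies at -0.99 with both marks near the point, while the marks of IDI1 lie at 1.11 and 0.00.

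Of 12 genes of sterol sensing and SREBP processing tested, SREBF2 and INSIG1 included, 9 were higher in LM2, where 55.7% of all genes were. Their median was 0.20, and 0 had an unadjusted p below 0.05 in either direction (6.96% higher and 4.6% lower over all genes). Against SN12C replicate 1 the median was 0.29, and against replicate 2 it was 0.03. MBTPS2, the protease that makes the second cut, read 10.78 and 11.31 in SN12C and 11.42 and 11.53 in LM2. Its difference was 0.43 ± 0.22 (SE), and 0.99 in a dimmer probe set, which read 7.89 and 9.33 on the SN12C arrays. ERLIN1, a component of the complex that degrades sterol enzymes of the endoplasmic reticulum, differed by 0.34 ± 0.24 (SE). A dimmer ERLIN1 probe set gave 1.03, and read 9.57 and 11.28 on the SN12C arrays. Among 12 genes of uptake and transport the median was 0.06, with 1 gene higher at an unadjusted p below 0.05 and 0 lower, beside the same 6.96% and 4.6% of all genes. That gene was LIPA, the lysosomal acid lipase that frees cholesterol from lipoprotein esters, at 11.88 and 12.30 in SN12C and 12.61 and 12.67 in LM2 (difference 0.55 ± 0.18, SE; limma adjusted p = 0.42). NPC1, which exports cholesterol from lysosomes, differed by -0.39 ± 0.27 (SE), at -0.07 and -0.71 against SN12C replicates 1 and 2. LRP8, a lipoprotein receptor, differed by 0.32 ± 0.36 (SE), and its direction turned between the parental arrays (0.77 and -0.13).

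The genes of sterol storage and efflux had a median of -0.07 over 8 tested, with 0 higher and 2 lower at an unadjusted p below 0.05, beside 6.96% and 4.6% of all genes. ABCA1, which exports cholesterol from the cell, read 8.60 and 7.84 in SN12C, 7.69 in LM1, and 7.23 and 7.25 in LM2. Every LM2 value was below every parental one, by -0.98 ± 0.30 (SE; limma unadjusted p = 0.0424, adjusted p = 0.411), at -1.36 and -0.60 against the parental arrays in turn. A second probe set gave -0.79, and the 2 others lay below the filter value. NCEH1, a cholesterol ester hydrolase, differed by -0.24 ± 0.07 (SE; limma adjusted p = 0.405). RXRA, the partner of the sterol-sensing LXR receptors, differed by 0.29 ± 0.35 (SE), and its direction turned between the parental arrays (0.73 against replicate 1 and -0.14 against replicate 2). CYP27A1, a sterol hydroxylase, differed by -0.31 ± 0.23 (SE), at -0.58 and -0.03 in the same order.

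**Figure D3:**
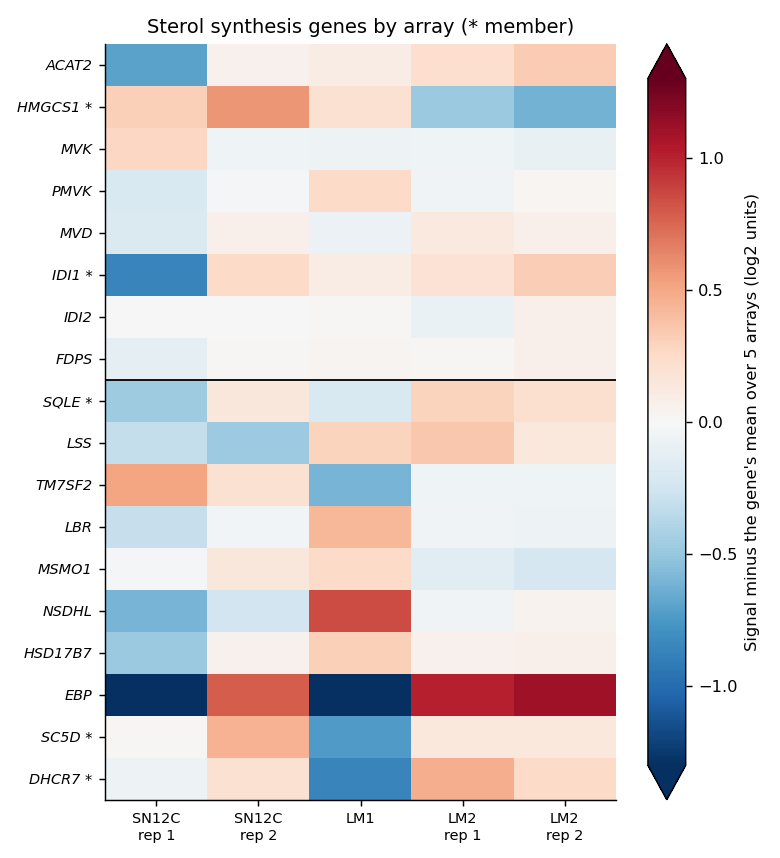
Signal of the 18 sterol synthesis genes tested on each array, minus the gene's mean over the 5 arrays (log2 units; red above, blue below; the colour scale ends at 1.3, which EBP passes; asterisks mark members; the line divides the steps before and after squalene). IDI1 is lowest on SN12C replicate 1 (-0.85), DHCR7 and SC5D are lowest on LM1 (-0.85 and -0.73), and HMGCS1 is the member that is blue on both LM2 arrays (-0.48 and -0.61).

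The second comparison, of LM1 with SN12C, asks what differed in generation 1. DHCR7 and SC5D stood lowest against the parent, IDI1 and INSIG1 were higher, and HMGCS1, SREBF2 and SQLE were lower by smaller amounts. DHCR7 differed by -0.92 ± 0.19 (SE; limma unadjusted p = 0.0127, adjusted p = 0.132) and SC5D by -0.97 ± 0.22 (SE; limma unadjusted p = 0.0184, adjusted p = 0.15). HMGCS1 differed by -0.25, SREBF2 by -0.05, SQLE by -0.04, INSIG1 by 0.14 and IDI1 by 0.40. Over all genes 0% passed an adjusted p of 0.05 (limma, lowest adjusted p = 0.0964), with 3325 genes at an unadjusted p below 0.05, 17.2% higher and 4.96% lower. Of the 7 members 0 were higher and 2 lower at that level. Without SN12C replicate 1 limma called 1979 genes and without replicate 2 it called 4823, the spread then coming from the LM2 pair alone. SC5D, whose LM2 values are equal, was the 1 member among them in both (-1.18 and -0.75). LM1 lay above both parental arrays for 1 member, against 45.2% of genes, and below both for 3, against 20.8%.

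Probe sets of the same gene gave different values on LM1 for most members. SQLE stood at -0.04 in its brightest probe set and at -0.72 and -2.04 in the next, which read 7.92 and 9.02 in SN12C and 6.43 in LM1. HMGCS1 stood at -0.25 and -2.48, INSIG1 at 0.14, -0.56 and -0.71, and DHCR7 at -0.92 and 0.19. For SREBF2 the values were -0.05 and -0.80. SC5D had only 1 tested probe set, which ends in _s_at, so its -0.97 has no second probe set beside it. The span among the probe sets of a gene was 2.24 log2 units for HMGCS1, 2.00 for SQLE, 1.11 for DHCR7, 0.85 for INSIG1, 0.80 for SREBF2 and 0.50 for IDI1. Its median over the 7195 genes with several tested probe sets was 0.70, and 0.27 for LM2 against SN12C. Of the 18 member probe sets tested, LM1 lay below both parental arrays in 11, against 28.3% of 27739 probe sets with 1 gene symbol. By type, these were 7 of the 8 member probe sets ending in _s_at, against 35.9% of all probe sets of that type, 1 of the 3 ending in _x_at, against 34%, and 3 of the 7 with neither ending, against 23.9%. The median difference of the 7 members moved from -0.05 with the brightest probe sets to -0.92 with those of the largest SD and -0.38 with the mean of all. LM1 is the array with the large 3′ to 5′ differences of beta-actin and GAPDH, and the part of these in the disagreement was not tested.

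**Figure D4:**
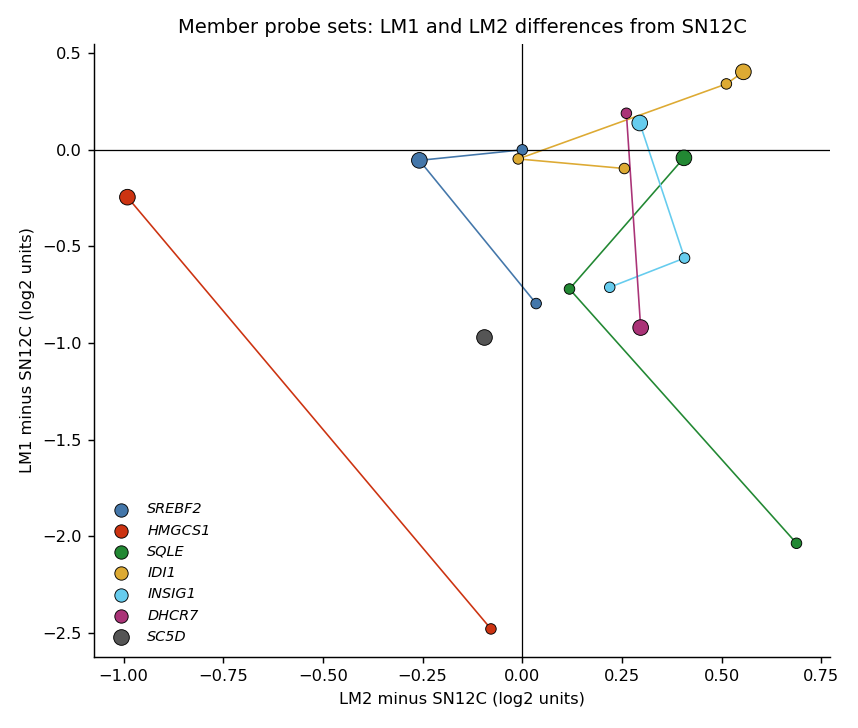
Difference of LM1 from SN12C against difference of LM2 from SN12C, in log2 units, for the 18 member probe sets tested; colours are genes, lines join the probe sets of a gene and large points stand for the gene. The probe sets of SQLE span from -0.04 to -2.04 on the vertical axis. Both axes use the same 2 SN12C arrays, so the axes are not independent.

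Of the 13 sterol synthesis genes outside the members, 9 were higher and 4 lower on LM1, where 61.0% of all genes were higher. At an unadjusted p below 0.05, 3 were higher and 1 was lower, beside 17.2% and 4.96% of all genes, with a median of 0.19, against 0.09 over all genes. LSS differed by 0.68 ± 0.15 (SE) and NSDHL by 1.28 ± 0.20 (SE; limma adjusted p = 0.11), though other probe sets gave -1.16 for LSS and 0.13 for NSDHL. EBP stood at -1.05 in its brightest probe set, and at 1.81 and 1.93 in the next ones. In sensing and processing, 3 of 12 were higher and 0 lower at that level, beside 17.2% and 4.96% of all genes.

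The third comparison set LM2 against LM1, and shares the LM1 array with the comparison above and the LM2 arrays with the first. DHCR7 was higher in LM2 by 1.22 ± 0.19 (SE; limma unadjusted p = 0.00541, adjusted p = 0.178) and SC5D by 0.87 ± 0.22, while HMGCS1 was lower by a difference of -0.74 ± 0.16. The second probe set of DHCR7 gave 0.07 and that of HMGCS1 gave 2.40, opposite in direction to the first. Over all genes 0% passed an adjusted p of 0.05 (limma, lowest adjusted p = 0.178), and 2555 genes had an unadjusted p below 0.05, 4.23% higher and 12.8% lower. Among the 7 members 2 were higher and 1 was lower at that level. Fitted without SN12C replicate 1, without SN12C replicate 2, or with the LM1 and LM2 arrays alone, limma called 1273 genes, of which SC5D was the 1 member. SQLE (0.45), IDI1 (0.15), INSIG1 (0.16) and SREBF2 (-0.20) had adjusted p-values of at least 0.599 in limma. Their other tested probe sets gave larger differences for SQLE (0.84 and 2.72), INSIG1 (0.97 and 0.93) and SREBF2 (0.83), with adjusted p-values from 0.106 to 0.162 in the limma fit over probe sets.

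The profiles of the members over the arrays were averaged. Centred on each gene's own mean, the average of the 7 stood at -0.15 on SN12C replicate 1, 0.23 on replicate 2, -0.20 on LM1, and 0.10 and 0.03 on LM2. INSIG1 and SQLE lay nearest to it, with root mean square distances over the 5 arrays of 0.17 and 0.18 log2 units, and HMGCS1 farthest, at 0.50. Among 9614 tested genes outside the lists whose range over the arrays was at least that of the average, the nearest were SMCHD1 (0.04), METAP2 (0.04), PRSS22 (0.05), PAXIP1-AS2 (0.05) and DRAP1 (0.05). These were chosen as the nearest, so their distances are a description only.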

How the data were processed

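Total RNA of 3 cell lines was measured on 5 arrays. The deposited values are log2 signals, 1 for each probe set on each array. Their makers used RMA, a method that removes background, equalises array distributions by quantiles and combines probes into a log2 value, and Partek, per the submitters' processing notes. Versions are not given in the sources used here. Precision is limited by the number of arrays.

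Of 54675 probe sets, 62 controls were left out. A probe set was used for a gene where the platform table gives it 1 symbol. The probe set with the highest mean stood for a gene, which was tested if 2 or more arrays were at or above the table's 40th percentile (6.03). One mean per line was fitted with limma 3.58.1 in R 4.3.3 over all 5 arrays and all genes (2 residual and 1.3 prior degrees of freedom), with Benjamini-Hochberg adjustment at 0.05. Tested on simulated data of the LM2 and SN12C comparison (15024 genes), the fit recovered 44.8% of changes of size 1 in log2, 77.6% of size 2 and 100% of size 4. It made 4 false calls. The simulated noise was normal, with limma's own fitted spread for each gene. In the deposited values the LM2 differences ran from -6.12 to 4.16 with 0 genes called. The simulated shares therefore do not carry over to these arrays, and the 0 calls do not show that large changes are absent. Figures were drawn with matplotlib 3.10.9.

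The members and lists were chosen with earlier results of these data known, and the lists come from general knowledge. Named genes were all members, and of each list the 3 largest differences of LM2 from SN12C and all with an unadjusted p below 0.05. Alternatives covered the filter, probe set rule, scaling, eBayes options, arrays fitted, single arrays left out and the replicate number as a block. Lists were described, not tested.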

Additional observations from a re-analysis of the deposited data

How the results depend on the processing

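The count of 0 genes called was the same for each comparison under no filter, the 60th percentile filter, all 3 other probe set rules, both scalings, eBayes with trend and robust, and without either LM2 array. With the replicate number as a block, LM2 against SN12C had 0 genes called (lowest limma adjusted p = 0.458, that of HMGCS1 being 0.458 too). Replicate differences of the lines correlated at 0.09 across genes, and no label ties the numbers. Leaving out genes with tied values, chosen after seeing the data, gave 2 calls for LM2 against SN12C, neither a member, and 0 for the others; SC5D was among the genes left out. Leaving out 1 array in turn gave 0 to 3824 genes for LM2 against SN12C, 0 to 4823 for LM1 against SN12C and 0 to 1273 for LM2 against LM1, which also had 1273 with only its own arrays. The high counts came without SN12C replicate 2 (3824 and 4823), without SN12C replicate 1 (1979 for LM1 against SN12C) and without the one or the other (1273 for LM2 against LM1), where the spread comes from the LM2 pair alone. There SC5D, whose LM2 values are tied, was the 1 member called. The 60th percentile filter and no filter left 0 probe sets called.

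For LM2 against SN12C, SREBF2 turned to 0.035 with the probe set of largest SD and SC5D to 0.011 with the mean of probe sets, and SC5D ranged from -0.31 to 0.12 when an array was left out. For LM1 against SN12C, SQLE turned to 0.0069 with centred arrays, IDI1 to -0.10 without _x_at and _s_at probe sets, and INSIG1 to -0.56 with the largest SD, -0.38 with the mean and -0.000276 when quantile normalized again. With an array left out, SREBF2 ranged from -0.19 to 0.079, SQLE from -0.35 to 0.26 and IDI1 from -0.15 to 0.96. For LM2 against LM1, SREBF2 turned to 0.83 and 0.21 and HMGCS1 to 2.40 and 0.83 with the largest SD and the mean. The probe sets of these genes disagree on LM1, and those of HMGCS1 also on SN12C replicate 1. The cause of these and of the other turns was not tested. Quantile normalizing again moved the members' median for LM2 against SN12C from 0.29 to 0.13 and the median of all genes by -0.05. It also moved the share of higher among genes at an unadjusted p below 0.05 from 60.2% to 48.7%.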

Other observations

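Genes next to the sterol pathway, chosen from general knowledge, showed differences in both directions, and none passed an adjusted p of 0.05 in limma. Among 15 genes of fatty acid synthesis known as SREBF1 targets, 3 were higher and 2 lower in LM2 than in SN12C at an unadjusted p below 0.05, beside 6.96% and 4.6% of all genes, with a median of -0.16. FADS2, a desaturase, read 9.92 and 10.01 in SN12C, 10.40 in LM1, and 10.42 and 10.37 in LM2. All arrays of the metastatic lines were above the parental ones, by 0.43 ± 0.08 (SE; limma adjusted p = 0.292) for LM2, with 0.15 in a dimmer probe set. SCD, another desaturase, differed by 0.28 ± 0.08 (SE), and its other probe sets by 0.30, 1.31 and 1.19. The last 2 read 9.12 and 10.80, and 8.78 and 10.24, on SN12C replicates 1 and 2. ACACA, which makes malonyl-CoA, differed by 0.28 ± 0.09 (SE), but by -0.04 in its second probe set. ACLY, which supplies acetyl-CoA to both pathways, differed by 0.43 ± 0.16 (SE), and its other probe sets by 0.79 and 0.57. Those read 10.44 and 11.27, and 9.28 and 9.89, on SN12C replicates 1 and 2. On the other side, ME1, a source of NADPH, differed by -0.76 ± 0.22 (SE), with -0.83 in a second probe set and -0.04 in the remaining one. ELOVL6, an elongase, stood at 10.11 and 10.20 in SN12C, 10.91 in LM1, and 9.48 and 9.78 in LM2, a difference of -0.53 ± 0.14 (SE). Its other probe sets gave -0.24 and -0.11.

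In the isoprenoid branch, which draws on farnesyl diphosphate, 1 of 11 genes was higher and 0 were lower in LM2 at that level, beside the same shares of all genes. GGPS1, the synthase of geranylgeranyl diphosphate, read 9.18 and 9.49 in SN12C, 9.57 in LM1, and 9.85 and 10.08 in LM2. Its difference was 0.63 ± 0.16 (SE; limma adjusted p = 0.367), and a dimmer probe set gave 0.54. In their brightest probe sets, PDSS1 (0.44 ± 0.44, SE) and ICMT (0.42 ± 0.43, SE) were low on SN12C replicate 1 alone. A dimmer ICMT probe set gave 0.44, and read 7.69 and 8.82 on the SN12C arrays. A dimmer PDSS1 probe set gave -0.05, and lay close to the filter value at 6.08 to 6.25.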
